A study of Mus musculus with 8 samples.

Results

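The genes described here are 10 cell-surface and secreted components that start, brake or read out blood clotting and clot breakdown. They comprise the protease-activated receptor genes F2r, F2rl1 and F2rl2, the clotting initiator F3 and its inhibitor Tfpi, the protein C pathway receptors Thbd and Procr, and the plasminogen activators Plau and Plat with the urokinase receptor Plaur. They were chosen by symbol from a table of 21878 genes, in which all 10 were found. RNA sequencing had been done on 8 mouse libraries from lung whose cell type is given as pulmonary endothelial cells. Treatment labels named Ad-KLK8 for 4 libraries and Ad-control for the other 4, and the comparison asked which transcripts differed between them. Strain, age, dose and time are not in the labels, nor is the meaning of Ad. KLK8 is kallikrein-related peptidase 8, a serine protease that cells secrete, and the study's subject is the lung endothelium in endotoxemia.

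Clotting at the vessel wall begins when tissue factor, the product of F3, binds factor VIIa, and the thrombin that follows both makes fibrin and signals to cells by cutting protease-activated receptors. Thrombin bound to thrombomodulin (Thbd) instead activates protein C, which is presented by the endothelial protein C receptor (Procr) and dampens further thrombin formation. Fibrin is later dissolved by plasmin, which urokinase (Plau) and tissue plasminogen activator (Plat) release from plasminogen. Quiescent endothelium is known for high thrombomodulin, protein C receptor and tissue plasminogen activator and for little tissue factor, while mesothelial cells and fibroblasts also make several of these proteins.

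Promoter sequences were available in RefSeq (build GRCm38.p6) for 6 of the 10 genes, namely F2r, F2rl2, F3, Plaur, Procr and Tfpi. They are shown because 5 of these 6 held the same short word, the AP-1 motif TGANTCA, within the 250 bases before the annotated start. Among all 32851 promoter windows of the same length, 6.75% held it, a share of windows rather than of genes. Tfpi, with a window for each of its start sites, was counted once. The word was chosen for display from several that were searched, and its frequency in these genes was not tested. Capitals mark the AP-1 matches in the lines below, which run 5′ to 3′ in the direction of transcription.
Procr, chr2:155750967-155751216, plus strand: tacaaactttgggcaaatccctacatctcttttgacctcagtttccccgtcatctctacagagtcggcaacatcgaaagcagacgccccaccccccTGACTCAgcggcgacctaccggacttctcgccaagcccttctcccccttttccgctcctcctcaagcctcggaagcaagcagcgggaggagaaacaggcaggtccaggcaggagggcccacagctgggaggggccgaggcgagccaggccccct
F2r, chr13:95618467-95618716, minus strand: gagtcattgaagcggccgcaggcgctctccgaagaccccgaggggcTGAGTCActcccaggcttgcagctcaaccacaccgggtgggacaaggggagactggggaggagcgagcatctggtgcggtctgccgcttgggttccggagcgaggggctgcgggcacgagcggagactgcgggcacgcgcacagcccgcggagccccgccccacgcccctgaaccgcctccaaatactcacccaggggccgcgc
F3, chr3:121723287-121723536, plus strand: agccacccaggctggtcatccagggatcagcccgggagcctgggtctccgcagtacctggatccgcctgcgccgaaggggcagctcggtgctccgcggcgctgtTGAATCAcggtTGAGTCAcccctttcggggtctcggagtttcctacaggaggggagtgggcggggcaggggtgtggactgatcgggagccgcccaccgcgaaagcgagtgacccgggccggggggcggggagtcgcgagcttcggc
Plaur, chr7:24462233-24462482, plus strand: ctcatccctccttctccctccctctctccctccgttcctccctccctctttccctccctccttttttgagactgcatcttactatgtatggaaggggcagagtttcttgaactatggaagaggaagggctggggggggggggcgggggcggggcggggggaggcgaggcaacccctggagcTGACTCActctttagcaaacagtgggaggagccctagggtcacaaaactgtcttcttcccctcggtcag
F2rl2, chr13:95696670-95696919, plus strand: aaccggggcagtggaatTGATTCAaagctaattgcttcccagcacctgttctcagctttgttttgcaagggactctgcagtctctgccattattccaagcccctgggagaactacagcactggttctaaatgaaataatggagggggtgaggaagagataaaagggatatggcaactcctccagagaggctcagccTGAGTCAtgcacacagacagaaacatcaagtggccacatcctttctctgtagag
The match began 154 bases before the start in Procr, 204 in F2r and 69 in Plaur. F3 held matches at 146 and 135 bases, and F2rl2 at 233 and 54. The motif reads the same on both strands. In both start sites listed for Tfpi no match was found in the window. The other words searched on both strands were the GC box GGGCGG (4 of the 6 genes, 32.7% of all windows), the CACCC box CACCC (5 of 6, 52.0%), the TEAD word GGAATG (0 of 6, 12.6%) and the E-box CACGTG (0 of 6, 6.02%). GGGCGG and CACCC can overlap each other and other matches. The genes with the AP-1 word were not alike in how their RNA differed between the groups, as the values below show.

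Libraries held 17775433 to 18692134 recovered gene-assigned reads in the Ad-KLK8 group and 15758696 to 16747740 in the Ad-control group. Values are RPKM (reads scaled to gene length and to the library's total), so levels of different genes can be set side by side. Klk8 itself had 1159, 3263, 1354 and 1276 RPKM in the libraries labelled Ad-KLK8, against 1135, 1403, 1232 and 1422 RPKM in those labelled Ad-control. It did not separate the groups (limma adjusted p = 0.327), so every direction below rests on the labels alone. Library Ad-KLK8 2 stood apart from the rest of its group, since its reads differed from theirs by 18 to 19.6 in chi-square per degree of freedom, where the other pairs of that group gave 2.12 to 2.63. In Ad-control, libraries 1 and 3 gave 2.45 against each other, and every pair with library 2 or 4 gave 6.32 to 10.5. Msln, a mesothelial marker, and Ctss, chosen after their values were seen, followed that split, with 18.9, 10.9, 18.9 and 11.6 RPKM for Msln and 22.4, 9.94, 15.7 and 8.38 RPKM for Ctss in Ad-control libraries 1 to 4. The test (limma, adjusted p under 0.05) was run on the 11998 genes averaging 0.5 RPKM or more, and 77.7% of them passed, 25.7% as higher and 52.0% as lower in Ad-KLK8. After median-of-ratios scaling, which removes a shift of 0.21 in the median log2 difference, the shares were 77.3%, 39.9% and 37.3%. Whether replicates were separate cultures or animals is not in the labels, and p-values then reflect the spread between these libraries alone, which may be technical.

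The cell type on the label was checked against its markers, and the endothelial genes Cdh5 and Pecam1 were near 0 in both groups. Their means were 0.00999 and 0.0459 RPKM in Ad-KLK8, against 0.0910 and 0.138 RPKM in Ad-control. Esam, another endothelial gene, had 12.9 RPKM in Ad-KLK8 and 20.8 RPKM in Ad-control. The fibroblast gene Col1a1 had 1035 and 608 RPKM in the same order, and the mesothelial gene Wt1 had 105 and 78.3 RPKM. Of 25 endothelial identity genes 8 were tested and 7 of them were lower in Ad-KLK8 (6 after median-of-ratios scaling), and the summed level of the list was 26.1 to 29.8 RPKM in Ad-KLK8 and 47.4 to 49.5 RPKM in Ad-control. Among all tested genes 52.0% were lower and 25.7% higher, or 37.3% and 39.9% after that scaling. These shares are the background for each marker list here. Cdh5, the cadherin that defines endothelial junctions, had 3 reads over the Ad-KLK8 libraries and 24 over the Ad-control libraries, Pecam1 had 13 and 35, and Vwf 53 and 65. Robo4, chosen after its values were seen, ran the other way, with 71 reads over the Ad-KLK8 libraries and 7 over the Ad-control libraries. Tek, chosen in the same way, had 49 and 29 reads. In RPKM the groups overlapped for Tek (two-sided exact permutation p = 0.286) and for Vwf (0.143). Fibroblast markers summed to 5483 to 5701 RPKM in Ad-KLK8 and 2865 to 3107 RPKM in Ad-control, with 10 of 12 higher and 2 lower. All 7 mesothelial markers were tested, 6 were higher and Krt19 lower, and their sum was 709 to 776 RPKM in Ad-KLK8 and 212 to 273 RPKM in Ad-control. Leukocyte markers summed to 214 to 272 RPKM in Ad-KLK8 and 148 to 304 RPKM in Ad-control, with 1 of 8 tested higher (Cd14) and 5 lower (1 and 3 after median-of-ratios scaling), and none of 2 tested platelet markers passed. The smooth muscle and pericyte list summed to 808 to 1099 RPKM in Ad-KLK8 and 700.2 to 1027 RPKM in Ad-control, with 1 of 6 tested higher and 2 lower, or 3 and 1 after median-of-ratios scaling. Epithelial markers summed to 27.0 to 32.4 RPKM in Ad-KLK8 and 16.3 to 29.5 RPKM in Ad-control. Of 3 tested, 1 was higher (2 after that scaling), and Scgb1a1 was at 0 in every library. Krt8 had 15.5 and 8.94 RPKM in Ad-KLK8 and Ad-control, and Krt18 12.2 and 10.8 RPKM. Other markers, chosen after their values were seen, ran the other way in reads over the Ad-KLK8 and Ad-control libraries. Epcam had 8 and 30, Cdh1 7 and 22, Sftpb 12 and 74, and Sftpa1 17 and 125. In RPKM the groups overlapped for Cdh1 and Sftpa1 but not for Epcam and Sftpb. Foxj1 had 7 and 4 reads. The part of these cell types in the results below was not tested, and fewer cells of a type cannot be told apart from less RNA per cell.

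Of the 10 genes, 8 reached the level needed for the test and 7 of these passed it, with 3 higher (F2r, Thbd and Tfpi) and 4 lower (Plau, Procr, F3 and Plaur) in Ad-KLK8. The share called is close to the 77.7% of all tested genes. Plau and Procr were the ones lower by at least 2-fold, a size that 9.85% of all tested genes reached in that direction, 2.35% in the other and 12.2% in all. After median-of-ratios scaling F2r, Thbd, Tfpi and Plat were higher, Plau and Procr lower, and F3 and Plaur did not pass. F2rl1 and F2rl2 fell under the minimum level and were described by their reads. The Ad-KLK8 and Ad-control libraries did not overlap in 5 of the 8 tested genes, against 72.2% of all tested genes (23.1% with Ad-KLK8 higher and 49.1% lower). A two-sided exact permutation test gave p = 0.0286, the smallest that 70 arrangements allow, for F2r, F2rl1, F2rl2, Procr, Tfpi, Plau and Plaur, 0.0571 for F3 and Thbd, and 0.0857 for Plat.

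**Figure D1:**
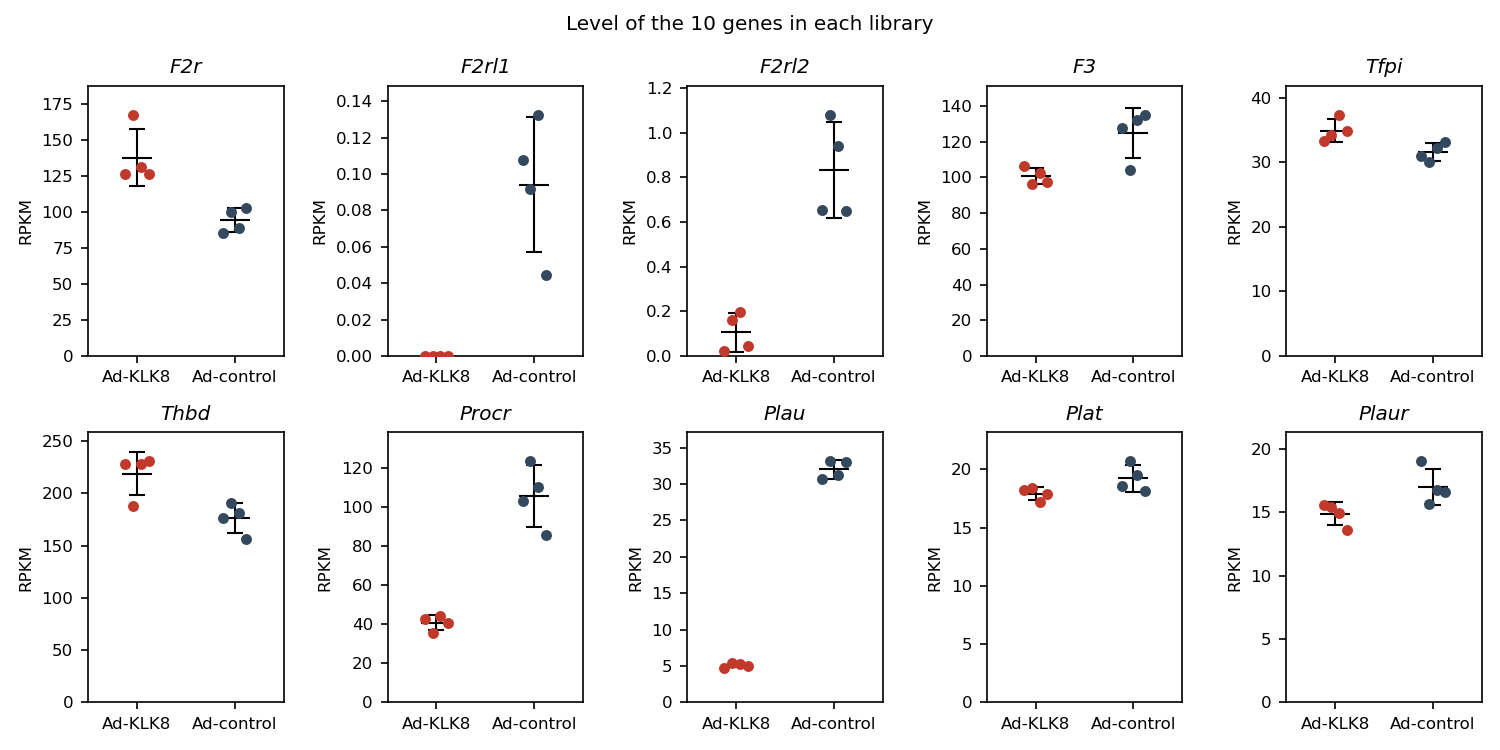
Level of each gene in RPKM (vertical axes, each starting at 0) in the 4 Ad-KLK8 libraries (red, left) and the 4 Ad-control libraries (dark, right). Points are libraries and bars are the mean ± SD; Plau and Procr lie far lower in Ad-KLK8, F2r lies higher, and F3, Thbd and Plat overlap.

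F2r encodes PAR1, the main thrombin receptor of most vascular and mesenchymal cells. It had 127, 168, 131 and 126 RPKM in Ad-KLK8 libraries 1 to 4, against 85.8, 100.1, 89.3 and 103 RPKM in Ad-control libraries 1 to 4. All 4 Ad-KLK8 libraries were above all 4 Ad-control libraries, and Ad-KLK8 2 was the highest. The means were 138 ± 19.9 RPKM in Ad-KLK8 and 94.5 ± 8.25 RPKM in Ad-control (SD, n = 4 each). The log2 difference was 0.54 ± 0.0939 (SE, limma adjusted p = 0.000363), and it was 0.44 without Ad-KLK8 2 and 0.78 after median-of-ratios scaling.

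The other receptors of the family were at or near the detection limit. F2rl2 encodes PAR3, which in mouse platelets helps thrombin act on PAR4. It had 1, 7, 9 and 2 reads in the Ad-KLK8 libraries, against 27, 42, 38 and 26 reads in the Ad-control libraries. The groups did not overlap, and in RPM, reads scaled to the library's total, the Ad-control level was 7.91 times the Ad-KLK8 level over the summed reads (19 and 133). Its means of 0.105 ± 0.0859 RPKM in Ad-KLK8 and 0.832 ± 0.215 RPKM in Ad-control (SD, n = 4 each) differed by more than the SD of either group. Without the filter on low genes limma gave F2rl2 a log2(RPKM + 1) difference of −0.72 with an adjusted p of 8.9e-05.

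F2rl2 lies inside the span of Iqgap2 in the RefSeq annotation, and the sources used here do not say whether the authors' counting used strand, so its reads cannot be fully told apart from those of Iqgap2. Iqgap2, a scaffold protein of the cytoskeleton, had 0.262 ± 0.0994 RPKM in Ad-KLK8 and 1.03 ± 0.123 RPKM in Ad-control (SD, n = 4 each), a log2 difference of −0.69 (limma adjusted p = 1.39e-05). Thus the receptor and the gene around it were both lower in Ad-KLK8.

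F2rl1 encodes PAR2, which is cut by trypsin-like proteases and by the tissue factor and factor VIIa complex rather than by thrombin. No read was found in any Ad-KLK8 library, and the Ad-control libraries held 5, 4, 6 and 2 reads. With a floor of 3 reads put in for the Ad-KLK8 group, the level in RPM was 6.4-fold lower there than in Ad-control. The floor allows for counting error in the 0 alone, and the 17 Ad-control reads were taken as counted, without their own error. At 0.0941 ± 0.0371 RPKM even in Ad-control (SD, n = 4), the gene stood between the 15.4 and 21.8 percentile of genes with any read, in the Ad-control libraries. F2rl3, the gene of PAR4, had 9 reads in the Ad-KLK8 group and 9 in the Ad-control group. By the order of genes in RefSeq (GRCm38.p6) F2rl1 and F2r are next to each other on chromosome 13 among protein-coding genes, with Iqgap2 next and F2rl2 within it, so that F2r was higher in Ad-KLK8 between neighbours that were lower or near 0.

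F3, whose product starts the extrinsic clotting pathway, was abundant in every library. It had 106, 96.5, 103 and 97.5 RPKM in Ad-KLK8, against 128, 104, 132 and 135 RPKM in Ad-control. Ad-control 2 lay within the range of the Ad-KLK8 libraries, and the other Ad-control libraries were above it. With means of 101 ± 4.55 RPKM in Ad-KLK8 and 125 ± 13.99 RPKM in Ad-control (SD, n = 4 each), the log2 difference was −0.30 ± 0.0761 (SE, limma adjusted p = 0.00403). It was −0.06 and no longer called after median-of-ratios scaling (adjusted p = 0.498, within a range of 5.14e-05 to 0.498 over 23 alternatives).

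Tfpi, the Kunitz-type inhibitor of the tissue factor complex, differed the other way and by less. Its levels were 33.3, 34.3, 37.4 and 34.8 RPKM in Ad-KLK8, against 31.0, 30.01, 32.2 and 33.2 RPKM in Ad-control. The groups were apart by a narrow gap between Ad-KLK8 1 and Ad-control 4. The log2 difference was 0.14 ± 0.0472 (SE, limma adjusted p = 0.0193) and 0.38 after median-of-ratios scaling. The call was lost after rescaling to TPM (adjusted p = 0.109), without Ad-KLK8 3 (0.0606), without Ad-control 2 (0.0545) and with the most similar libraries averaged (0.0995), in a range over 23 alternatives of 2.35e-05 to 0.109.

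Thrombomodulin was the most abundant of the 10 transcripts in both groups. Thbd had 228, 188, 229 and 231 RPKM in Ad-KLK8, against 176, 191, 181 and 157 RPKM in Ad-control. Of the Ad-KLK8 libraries 3 were above every Ad-control library, while Ad-KLK8 2 fell within the Ad-control range. Means were 219 ± 20.4 RPKM in Ad-KLK8 and 176 ± 14.4 RPKM in Ad-control (SD, n = 4 each), a log2 difference of 0.31 ± 0.0781 (SE, limma adjusted p = 0.00416) that was 0.55 after median-of-ratios scaling and 0.38 without Ad-KLK8 2. With the most similar libraries averaged it was 0.25 and did not pass (adjusted p = 0.0903, the highest of 23 alternatives that began at 0.0001).

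Procr, the receptor that presents protein C to thrombin-bound thrombomodulin, was much lower in Ad-KLK8. It had 42.7, 35.7, 44.5 and 40.6 RPKM there, against 103, 123, 110.2 and 85.8 RPKM in Ad-control. No Ad-KLK8 library came near the lowest Ad-control library. The mean Ad-control level was 2.59 times that of Ad-KLK8 (40.9 ± 3.78 RPKM in Ad-KLK8 and 106 ± 15.7 RPKM in Ad-control, SD, n = 4 each). The log2 difference was −1.34 ± 0.103 (SE, limma adjusted p = 6.51e-07), −1.10 after median-of-ratios scaling, and called in all 23 alternatives. The receptors of the protein C pathway therefore went in opposite directions. Proc, the gene of protein C, which is made by the liver, had 0 reads in Ad-KLK8 and 1 in Ad-control, and F2, the gene of prothrombin, had 0 and 5.

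Urokinase showed the largest difference of the 8 tested genes. Plau had 4.76, 5.42, 5.26 and 5.03 RPKM in Ad-KLK8, against 30.7, 33.1, 31.2 and 33.0 RPKM in Ad-control. Within each group the libraries lay close together, and the gap between groups was many times that spread. The mean Ad-control level was 6.25 times that of Ad-KLK8 (5.12 ± 0.287 RPKM in Ad-KLK8 and 32.0 ± 1.26 RPKM in Ad-control, SD, n = 4 each). The log2 difference was −2.43 ± 0.0489 (SE, limma adjusted p = 2.65e-10) and −2.21 after median-of-ratios scaling, and it passed in all 23 alternatives. Recovered reads were 222 to 246 per Ad-KLK8 library and 1285 to 1352 per Ad-control library, so the lower level was still well counted.

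Plat, the tissue-type activator that endothelium stores and releases, had 18.3, 18.4, 17.2 and 17.9 RPKM in Ad-KLK8, against 18.6, 20.7, 19.6 and 18.1 RPKM in Ad-control. The groups overlapped. Its log2 difference of −0.09 ± 0.0483 (SE) did not pass (limma adjusted p = 0.0962), and its sign depended on the scaling, being 0.14 with an adjusted p of 0.0262 after median-of-ratios scaling and −0.14 with 0.0169 after rescaling to TPM (range over 23 alternatives 0.0169 to 0.316). Without Ad-control 4 it was −0.12 and passed (adjusted p = 0.0431). Relative to the median of all tested genes it was 0.09 higher.

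Plaur, the receptor that holds urokinase at the cell surface, had 15.6, 15.4, 14.9 and 13.6 RPKM in Ad-KLK8, against 19.0, 15.6, 16.7 and 16.6 RPKM in Ad-control. The highest Ad-KLK8 value (15.58) and the lowest Ad-control value (15.65) all but touched. The log2 difference was −0.18 ± 0.0632 (SE, limma adjusted p = 0.0245), and 0.05 with an adjusted p of 0.419 after median-of-ratios scaling. It was also lost without Ad-KLK8 4 (0.0763) or Ad-control 1 (0.0651), and the 23 alternatives ranged from 0.00723 to 0.586. Plaur differed from the median of all tested genes by 0.01 on the log2 scale.

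**Figure D2:**
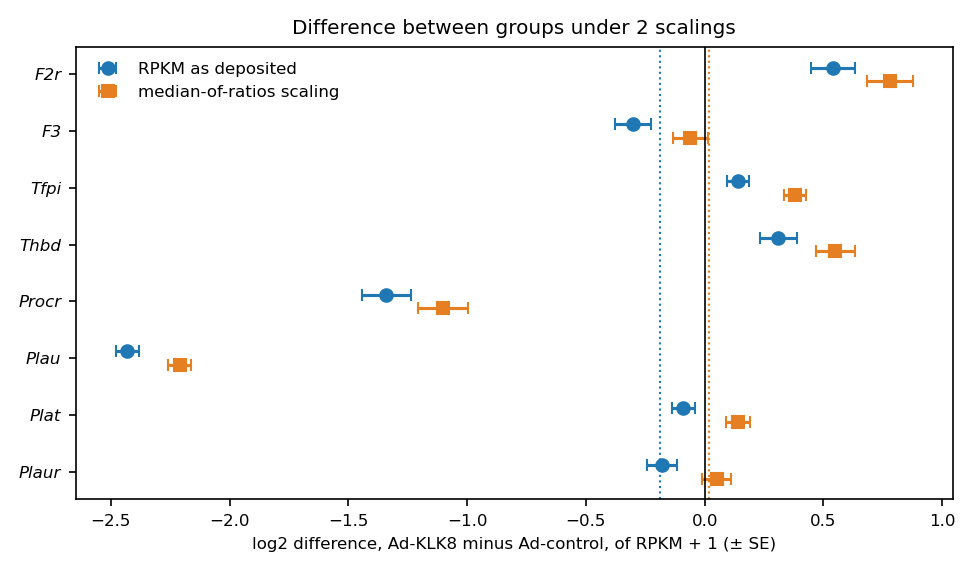
Log2 difference of RPKM + 1, Ad-KLK8 minus Ad-control (horizontal axis, bars are ± SE), of the 8 tested genes with RPKM as deposited (blue circles) and after median-of-ratios scaling (orange squares). Dotted lines are the medians of all tested genes under each scaling, −0.19 and 0.02; Plau and Procr stay far below 0 and F2r, Thbd and Tfpi above it, whereas F3 moves close to 0 and Plat and Plaur change sign.

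The order of the levels changed with the group. In Ad-KLK8 it ran Thbd, F2r, F3, Procr, Tfpi, Plat, Plaur, Plau, F2rl2 and F2rl1, and the libraries of neighbours overlapped for Procr and Tfpi alone. In Ad-control it ran Thbd, F3, Procr, F2r, Plau, Tfpi, Plat, Plaur, F2rl2 and F2rl1. Neighbours there whose libraries overlapped were F3 and Procr, Procr and F2r, Plau and Tfpi, and Plat and Plaur. Among genes with any read in some library, Thbd stood at the 98.3 to 98.6 percentile in Ad-KLK8 and 97.9 to 98.4 in Ad-control. Plau stood at the 56.1 to 57.8 percentile in Ad-KLK8 and at 86.0 to 87.3 in Ad-control.

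Ratios within a library do not change when each library is multiplied by a factor of its own. Quantile normalization is not of that kind, and the ratios were not computed after it. In all, 5 pairs with reads in every library were set out without a test. Urokinase was below tissue plasminogen activator in Ad-KLK8 and above it in Ad-control, with a Plau to Plat ratio of RPKM of 0.261 to 0.306 in Ad-KLK8 and 1.59 to 1.82 in Ad-control. Plau to Plaur was 0.305 to 0.369 in Ad-KLK8 and 1.61 to 2.11 in Ad-control. The ligand was thus less abundant than its receptor transcript in each Ad-KLK8 library and more abundant in each Ad-control library. F3 to Tfpi was 2.74 to 3.19 in Ad-KLK8 and 3.48 to 4.12 in Ad-control. Thbd to F3 was 1.95 to 2.36 in Ad-KLK8 and 1.16 to 1.83 in Ad-control, and Procr to Thbd 0.176 to 0.195 in Ad-KLK8 and 0.547 to 0.646 in Ad-control. The groups were apart in each of the 5 ratios.

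**Figure D3:**
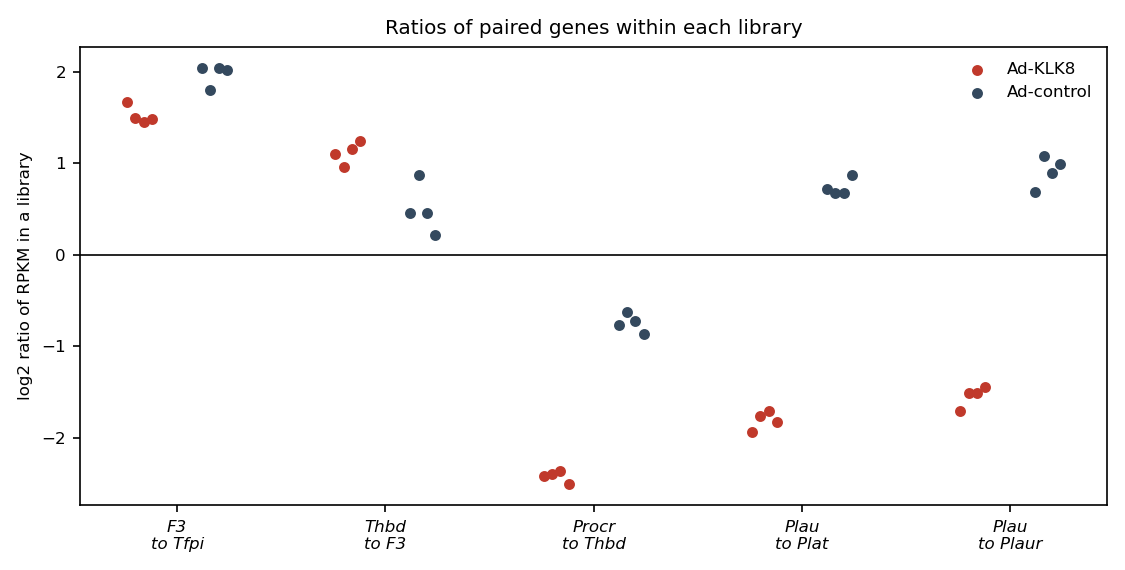
Log2 ratio of the RPKM of paired genes in each library (vertical axis) for the 4 Ad-KLK8 libraries (red, left of each pair) and the 4 Ad-control libraries (dark, right). The Plau to Plat and Plau to Plaur ratios lie below 0 in Ad-KLK8 and above 0 in Ad-control.

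Other genes of the plasminogen system differed in both directions, in shares near those of all tested genes as deposited. Of 22 genes of this list 15 were tested, and 4 rose, 9 fell and 2 did not pass (5, 9 and 1 after median-of-ratios scaling), against 25.7% higher and 52.0% lower among all tested genes (39.9% and 37.3% after that scaling). The median log2 difference was −0.43, or −0.18 after median-of-ratios scaling, against −0.19 and 0.02 for all tested genes. Serpinb2, which encodes the plasminogen activator inhibitor PAI-2, fell to 64.0 ± 2.8 RPKM in Ad-KLK8, against 311 ± 27.2 RPKM in Ad-control (SD, n = 4 each, limma adjusted p = 1.2e-09). Serpine2, the protease nexin that inhibits urokinase and thrombin, fell to 11.9 ± 1.55 RPKM in Ad-KLK8, against 20.2 ± 3.45 RPKM in Ad-control (limma adjusted p = 0.000227). So the activator Plau and these inhibitors of it were all lower in Ad-KLK8.

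Serpini1, neuroserpin, an inhibitor of tissue plasminogen activator, fell to 2.25 ± 0.24 RPKM in Ad-KLK8, against 5.92 ± 0.16 RPKM in Ad-control (SD, n = 4 each, limma adjusted p = 8.17e-08). Mrc2, which encodes the collagen receptor that associates with the urokinase receptor, fell to 5.21 ± 0.474 RPKM in Ad-KLK8, against 11.9 ± 1.11 RPKM in Ad-control (limma adjusted p = 3.98e-07). The genes that rose included a clearance receptor and a plasminogen receptor. Lrp1, which takes up complexes of activators with their inhibitors, rose to 146 ± 5.89 RPKM in Ad-KLK8, against 87.1 ± 2.23 RPKM in Ad-control (limma adjusted p = 5.66e-08). Plgrkt, a plasminogen receptor, rose to 9.91 ± 1.49 RPKM in Ad-KLK8, against 6.06 ± 0.24 RPKM in Ad-control (limma adjusted p = 7.15e-05). Plg, the gene of plasminogen itself, had no read in any library.

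Most coagulation factor genes were near or at 0 reads, while Gas6, Pros1, Vkorc1, Ggcx and Lman1 were higher in Ad-KLK8. Of 29 genes of this list 9 were tested, and 5 rose, 2 fell and 2 did not pass, against 25.7% higher and 52.0% lower among all tested genes. After median-of-ratios scaling 7 were higher, 1 was lower and 1 did not pass, against 39.9% higher and 37.3% lower. The median log2 difference was 0.46, or 0.68 after that scaling, against −0.19 and 0.02 for all tested genes, and 7 genes had no read anywhere. Gas6, a vitamin K-dependent ligand of TAM receptors related to protein S, rose to 519.6 ± 43.6 RPKM in Ad-KLK8, against 119 ± 21.4 RPKM in Ad-control (SD, n = 4 each, limma adjusted p = 5.71e-08). Pros1, protein S, the cofactor of activated protein C, rose to 18.5 ± 0.418 RPKM in Ad-KLK8, against 10.8 ± 0.73 RPKM in Ad-control (limma adjusted p = 3.25e-07). Vkorc1 and Ggcx, the enzymes that recycle vitamin K and carboxylate such proteins, rose to 97.0 ± 4.62 and 13.03 ± 0.457 RPKM in Ad-KLK8, against 56.8 ± 2.44 and 9.21 ± 0.24 RPKM in Ad-control (limma adjusted p = 1.1e-07 and 3.08e-06). Vkorc1l1, a second vitamin K epoxide reductase named here after its value was seen, fell to 7.12 ± 0.453 RPKM in Ad-KLK8, against 8.81 ± 0.664 RPKM in Ad-control (limma adjusted p = 0.00238), and its log2 difference of −0.27 was −0.05 and not called after median-of-ratios scaling. F7, the gene of factor VII, also vitamin K-dependent, had 20 reads in Ad-KLK8 and 47 in Ad-control. Lman1, the cargo receptor for factors V and VIII, rose to 55.1 ± 1.04 RPKM in Ad-KLK8, against 38.8 ± 3.28 RPKM in Ad-control (limma adjusted p = 1.24e-05). Tfpi2, a relative of Tfpi, fell to 1.24 ± 0.141 RPKM in Ad-KLK8, against 1.98 ± 0.173 RPKM in Ad-control (limma adjusted p = 0.000296), a call that was lost after quantile normalization (0.595, range over 22 alternatives 0.000152 to 0.595).

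Genes that carry or end the signal of protease-activated receptors differed in shares near those of all tested genes. Of 20 genes of this list 18 were tested, and 3 rose, 10 fell and 5 did not pass, against 25.7% higher and 52.0% lower among all tested genes, and the median log2 difference was −0.20, against −0.19. With median-of-ratios scaling the list held 7 rises and 6 falls, against 39.9% and 37.3% of all tested genes, and its median was 0.04, against 0.02. Among the falls were the arrestins, which switch off receptors. Arrb2 fell to 11.9 ± 1.93 RPKM in Ad-KLK8, against 32.8 ± 0.213 RPKM in Ad-control (SD, n = 4 each, limma adjusted p = 1.1e-07), and Arrb1 to 1.93 ± 0.0543 RPKM in Ad-KLK8, against 4.38 ± 0.259 RPKM in Ad-control (limma adjusted p = 1.51e-07). Rgs2, which shortens Gq signals, fell to 0.130 ± 0.0763 RPKM in Ad-KLK8, against 5.88 ± 1.17 RPKM in Ad-control (limma adjusted p = 1.79e-08). Gna13, a G protein subunit that these receptors activate, fell to 14.2 ± 1.34 RPKM in Ad-KLK8, against 23.0 ± 1.7 RPKM in Ad-control (limma adjusted p = 1.16e-05). Arhgef12, a guanine nucleotide exchange factor downstream of it, rose to 24.4 ± 0.412 RPKM in Ad-KLK8, against 16.0 ± 1.58 RPKM in Ad-control (limma adjusted p = 7.93e-06). The G protein subunit genes Gnaq and Gnai2, named here after their values were seen, were higher too. Their log2 differences were 0.23 and 0.22 (limma adjusted p = 0.00429 and 0.000964). The subunit gene Gna11 did not pass (0.05, limma adjusted p = 0.347). Gna12, another subunit gene, and Arhgef11, another exchange factor, were lower, at −0.14 and −0.26 (limma adjusted p = 0.0211 and 0.000295). Neither of these 2 passed after median-of-ratios scaling (limma adjusted p = 0.0634 and 0.481). F2r itself was thus higher beside lower arrestins and Rgs2, and what this means for its signal was not tested.

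**Figure D4:**
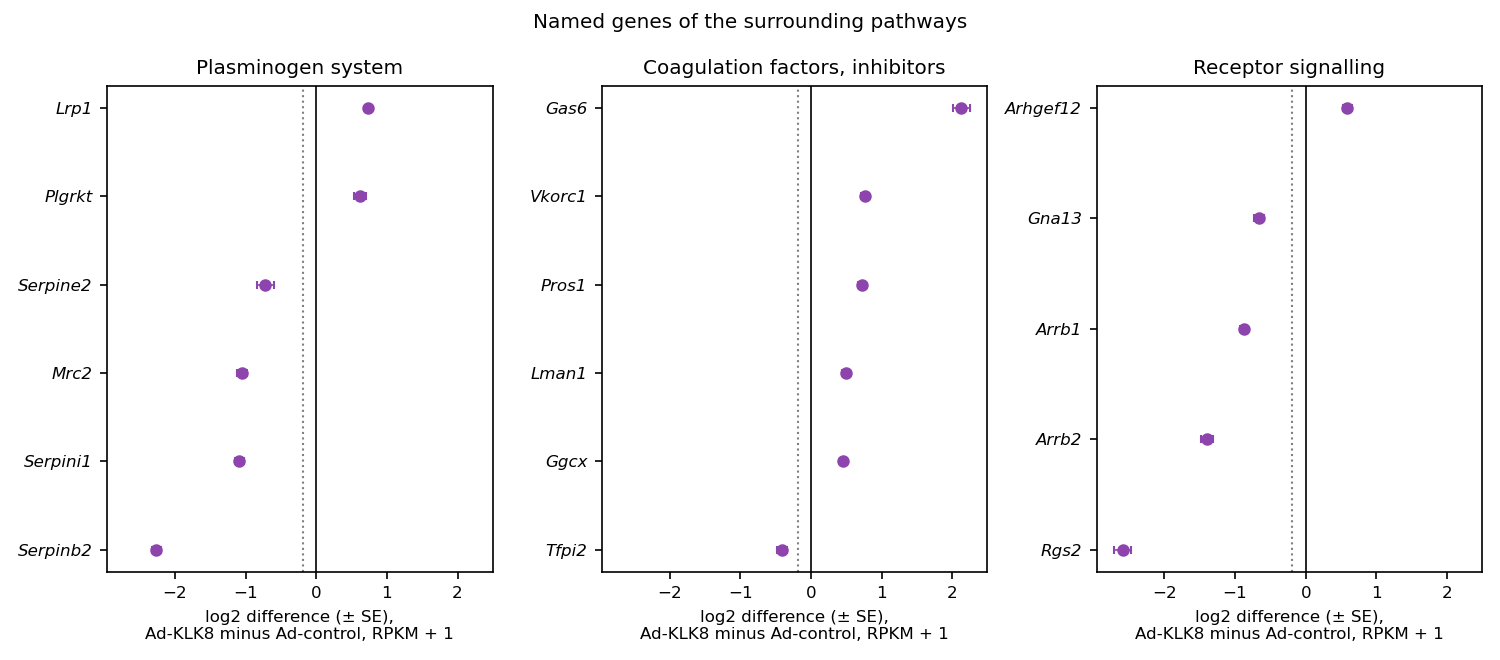
Log2 difference of RPKM + 1, Ad-KLK8 minus Ad-control (horizontal axes, bars are ± SE), of named genes of 3 surrounding lists. Most were picked for the smallest adjusted p of their list, so all points passed a limma adjusted p of 0.05. Genes of the lists that did not pass are not drawn. The dotted line is the median of all tested genes (−0.19). Among the genes drawn, Serpinb2 and Rgs2 lie lowest and Gas6 highest.

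Surface partners of these receptors went in both directions, with 3 of 15 tested genes higher and 5 lower, of 18 listed, against 25.7% and 52.0% of all tested genes. After median-of-ratios scaling 6 were higher and 5 lower, against 39.9% and 37.3%. S1pr1, the sphingosine-1-phosphate receptor through which activated protein C protects endothelial barriers, fell to 1.52 ± 0.164 RPKM in Ad-KLK8, against 12.98 ± 1.86 RPKM in Ad-control (SD, n = 4 each, limma adjusted p = 4.98e-09). The integrin genes Itga5 and Itgb3 fell to 72.6 ± 4.93 and 1.92 ± 0.104 RPKM in Ad-KLK8, against 155 ± 15.5 and 6.44 ± 1.39 RPKM in Ad-control (limma adjusted p = 2.44e-07 and 1.03e-06). Itga3 and Itgb5 rose to 66.5 ± 3.13 and 44.0 ± 2.53 RPKM in Ad-KLK8, against 43.0 ± 3.59 and 28.1 ± 1.38 RPKM in Ad-control (limma adjusted p = 3.96e-06 and 1.19e-06). Integrin partners of the urokinase receptor therefore differed in both directions while Plaur itself stayed near the median of all genes.

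Of 16 proteases that can cut these receptors, and their inhibitors, 15 were in the table and 7 were tested, with 1 higher and 3 lower, against 25.7% and 52.0% of all tested genes. After median-of-ratios scaling 2 were higher and 2 lower, against 39.9% and 37.3%. Mmp13, collagenase-3, fell to 21.9 ± 3.48 RPKM in Ad-KLK8, against 121 ± 16.1 RPKM in Ad-control (SD, n = 4 each, limma adjusted p = 3.06e-08). Spint2, a Kunitz-type inhibitor of membrane serine proteases, rose to 14.2 ± 1.39 RPKM in Ad-KLK8, against 4.39 ± 0.536 RPKM in Ad-control (limma adjusted p = 5.72e-08). Its relative Spint1 fell to 1.13 ± 0.257 RPKM in Ad-KLK8, against 2.09 ± 0.422 RPKM in Ad-control (limma adjusted p = 0.00142), a call lost after quantile normalization (0.183, range over 22 alternatives 0.000332 to 0.183). St14, the gene of matriptase, was low at 0.809 ± 0.153 RPKM in Ad-KLK8 and 1.19 ± 0.341 RPKM in Ad-control, and its adjusted p of 0.0418 in limma ranged from 0.0169 to 0.577 over 22 alternatives. Ctss, cathepsin S, had 8.71 ± 1.36 RPKM in Ad-KLK8 and 14.1 ± 6.37 RPKM in Ad-control and did not pass (limma adjusted p = 0.0608).

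For each tested gene the most similar profiles over the 8 libraries were looked up by Pearson's r on log2(RPKM + 1), as a description. Where the groups lay far apart, as for Plau and Procr, these correlations mostly restate that gap, which all 8 libraries share. For F3, Thbd and Plat the groups overlapped, so differences between libraries of the same group also enter r. Plau was closest to Pwp1 (r = 0.9997), Procr to Nab1 (0.9979), F2r to Cyb5r3 (0.9952), Thbd to Sptbn1 (0.9871), F3 to Tbkbp1 (0.9843), Tfpi to Hltf (0.9768), Plaur to Ndufab1 (0.9696) and Plat to Atp5a1 (0.965). None of the 8 tested genes had another of the 10 among its 2 nearest profiles. The second nearest were Ptbp2, Rfwd3, Eef1a1, Boc, Bdkrb1, Slc26a11, Ccdc142 and Fam216a in the same order.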

How the data were processed

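RNA was measured in 8 mouse libraries prepared with a stranded mRNA kit, per the labels' protocols. The authors deposited 1 table of RPKM values for 21878 genes. The submitters' processing notes name HISAT2, Cufflinks, DESeq, Trimmomatic and SAMtools, without versions or roles, and build GRCh38, which is human, although the table's identifiers are those of mouse. Gene coordinates are therefore not given, and promoters, matched by symbol, carry RefSeq's own build. The sources used here do not say how reads of overlapping genes were assigned.

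Groups and replicate numbers came from the sample titles. The members, lists and alternatives were chosen with earlier results of these data known. Limma 3.58.1 in R 4.3.3 (lmFit, eBayes with trend, two-sided) was run on log2(RPKM + 1) over the 11998 genes averaging 0.5 RPKM or more, with group as the only term and Benjamini-Hochberg adjustment over all tested genes at 0.05. A fold change on this scale understates that of low genes. Members were also compared with two-sided exact permutation tests, and the smallest p is 0.0286. Whole reads were recovered from the RPKM steps for all 17461 genes above 0, within 0.001 read or a relative rounding error. On simulated tables recovery was exact for 99.56% of 14425 genes with reads in every library. A simulated comparison of the same size over 12002 genes recovered 62% of genes changed 1.25-fold and 96% of those changed 2-fold. Of its 186 calls, 14 were false. It changed few genes and gave all genes the same dispersion, with no library standing apart, so these rates may not hold for the real libraries. Read recovery served depth, low genes and a voom alternative. A count of 0 reads allows up to 0.161 to 0.190 RPM per library (3 reads), for counting error only. No 2 libraries of a group agreed within sampling noise, the lowest chi-square per degree of freedom being 2.12.

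Named genes were the 10 members, up to 5 genes with the smallest adjusted p and a mean of at least 1 RPKM from each of 5 pathway lists, 10 further genes fixed by name and the 2 nearest profiles of each tested member, less a few that are left out here. Alternatives were other pseudocounts, filters, scalings, priors and weights, the replicate block, voom, averaging of the most similar libraries and leaving out each library. Python 3.11.15 with pandas 2.3.3 was used for tables and matplotlib 3.10.9 for plots.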

Additional observations from a re-analysis of the deposited data

Results flagged for a closer look

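Among the named genes, 9 libraries lay far from the other 3 of their group, by the gap to the nearest library over the range of the group. About 1 in 20 groups is flagged so by chance, and 83 groups were looked at. Of the 9, 5 were library Ad-KLK8 2. It had 168 RPKM for F2r, where the other Ad-KLK8 libraries had 126 to 131, and 188 RPKM for Thbd, where they had 228 to 231. It had 14.8 RPKM for Arrb2 (others 10.6 to 11.3), 40.2 RPKM for Itgb5 (others 45.0 to 45.5) and 3263 RPKM for Klk8 (others 1159 to 1354). Library Ad-KLK8 1 had 68.2 RPKM for Serpinb2, where the others had 62.5 to 62.6. In Ad-control, library 3 had 5.68 RPKM for Serpini1 (others 5.99 to 6.02) and 0.0304 RPKM for Proc, which was recovered as 1 read where the others had 0. Library Ad-control 2 had 8.52 RPKM for Itgb3 (others 5.56 to 5.94).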

How the results depend on the processing

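F2r, Procr and Plau kept their direction and their limma call in all 23 alternatives, and F3, Thbd, Tfpi, Plaur and Plat did not. Median-of-ratios, upper-quartile scaling and quantile normalization gave 4791, 4784 and 4877 genes higher in Ad-KLK8, against 3079 as deposited. A minimum mean of 5 RPKM gave 4091 lower, against 6243. The log2 difference of F3 was −0.06 after both median-of-ratios and upper-quartile scaling, which left 2 of the 8 tested members lower. That of Plaur was 0.05, 0.05 and 0.04 after the 3 scalings, and that of Plat 0.14, 0.14 and 0.10. Plat passed at −0.14 after rescaling to TPM and at −0.10 with array weights. Tfpi was 0.09 after rescaling to TPM. Averaging the most similar libraries left 5 libraries and 1 member called higher, with Thbd at 0.25, Tfpi at 0.13 and Plaur at −0.14 no longer called. A pseudocount of 0.1 or 0.5 RPKM gave F2rl1 −0.94 or −0.25, against −0.13, and F2rl2 −2.25 or −1.13, against −0.72, since a smaller pseudocount shrinks low genes less. F2rl2 was −0.51 after quantile normalization. St14 turned to 0.07 after quantile normalization. Leaving out each library in turn gave −0.12 to −0.06 for Plat, −0.21 to −0.13 for Plaur, 0.11 to 0.16 for Tfpi and −0.04 to 0.46 for Klk8, with 2 to 3 members called higher and 3 to 5 lower. Of 683 values for the 30 other named genes, 663 kept direction and call. Of 230 counts for the pathway lists, 21 moved by over 1.5 times, 15 of them under another scaling. The cause of these changes was not tested beyond the construction of each alternative.

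The replicate numbers did not pair the libraries, since same-numbered libraries correlated in their deviations at −0.0905, −0.0656, 0.0106 and −0.0481. With the replicate block 3 members were called higher and 4 lower, as without it, with 3007 of all tested genes higher, against 3079, and 6163 lower, against 6243. Depth limits F2rl1 and F2rl2, with 0 and 19 reads in the Ad-KLK8 group.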
